A study of Mus musculus with 4 samples.

Results

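The 10 genes described here are the netrin receptors Dcc, Neo1, Unc5a, Unc5b, Unc5c, Unc5d and Dscam and the secreted netrins Ntn1, Ntn3 and Ntn4. They were represented by every non-control probe whose RefSeq accession belongs to one of them, which gave 14 of the 55681 probes of the array and 10 of the 20660 RefSeq genes with a probe. Of these genes, 7 had 1 probe, 2 had 2 probes, and Dcc had 3. Probe sequences were not used here, and which exon or transcript form each probe reads was not analysed.

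Netrins are secreted guidance proteins that attract or repel growing axons, and the receptors a growth cone carries set which response it makes. Dcc is the receptor through which netrin-1 attracts commissural axons, Neo1 is its paralog and also binds the repulsive guidance molecules, the Unc5 receptors mediate repulsion, and Dscam is an adhesion protein described as a further netrin co-receptor. In the developing brain this system is known for guiding axons across the midline, for neuronal migration and for cell survival.

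The study asked whether exposure of pregnant mice to titanium dioxide nanoparticles (TiO2-NP) changes gene expression in the brain of their offspring. Pregnant C57BL/6 mice (C57BL/6J in the protocol) received, into the trachea, 25 µL of a TiO2-NP suspension that held 100 µg per mouse (TiO2-H group) or the particle-free filtrate of the suspension (Sham group), at gestational day (GD) 10.5 by the protocol and GD 14 by the sample descriptions. Whole brains were taken from male and female offspring at postnatal day 1, and the RNA of 2 offspring per dam was pooled over 5 dams (Sham, 10 offspring) or 6 dams (TiO2-H, 12 offspring). Each of the 4 pools, 1 for each exposure and sex, was hybridized to 1 array, and as the dams number 5 and 6 in all, the male and female pools of an exposure shared their dams.

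Values are the processed signal, an intensity with the background subtracted, divided by the 75th percentile of the non-control spots on the same array (810, 795, 867 and 871), and are called the scaled signal. They are given in the order Sham male, Sham female, TiO2-H labelled male and TiO2-H labelled female. The order matters because the sex-linked mRNAs went against the labels of the TiO2-H arrays, with a scaled signal of Xist, the RNA of the inactive X chromosome, of 0.0221, 0.347, 0.40 and 0.00616, and of the Y-linked Eif2s3y of 4.34, 0.527, 0.00738 and 4.99. Eif2s3y also read higher on the Sham female array than on the array labelled TiO2-H male, as did the Y-linked Ddx3y (0.179 against 0.00828). The Y-linked Uty read alike on both (0.00944 against 0.0095), but near background. With only 0.0616 on the Sham male array, Uty could not show a weak signal there. The source of the Eif2s3y and Ddx3y signal on the Sham female array was not tested. Each ratio within a sex therefore rests on the labels, and crossing the TiO2-H arrays moved the log2 ratios of the detected members other than the brightest Dcc probe by at most 0.13, to between -0.19 and 0.31. All arrays lay on a single slide, with the Sham arrays in one row and the TiO2-H arrays in the other, so that exposure, litters and row cannot be told apart. No spot was saturated, and among 399 probes spotted repeatedly the median SD of log2 signal between spots of a probe was between 0.064 and 0.07, which covers single-spot error alone. With 1 array per group the number of arrays limits the precision, and limma, with the 2 TiO2-H arrays against the 2 Sham arrays, measured only the spread between pools.

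Of the 14 probes, 11 were well above background on all 4 arrays, and these represented 8 of the 10 genes. The brighter of the detected Dcc probes read 2.4-fold (labelled male) and 2.15-fold (labelled female) of Sham in the TiO2-H pools. The other detected Dcc probe did not share this, at 1.04- and 1.27-fold. It and the detected probes of the other receptors and ligands lay within 0.889- to 1.3-fold of Sham. Only this Dcc probe was upregulated (≥1.5-fold) in both sexes, 1 of 11, against a background of 0.315% of all probes compared in both sexes. No member was upregulated in a single sex, for which the background was 4.08% on the arrays labelled male and 2.65% on those labelled female. None was downregulated (≤0.67-fold) in either sex, for which the background was 3.29% and 3.31%, or 0.214% in both sexes together. These shares, like those between female and male pools at the end of this paragraph, also cover probes well above background on only 1 array of a pair, unlike the 11. With both arrays of a pair required, 571 of 1359 higher and 401 of 1096 lower calls remained on the arrays labelled male. On those labelled female 355 of 902 and 490 of 1128 remained, so shares matched to the 11 probes would be smaller. Between the female and male pools of one exposure, 0 of the 11 probes passed either threshold, their log2 ratios lying between -0.26 and 0.36. The background there was 3.17% higher and 3.15% lower in Sham and 2.05% higher and 4.16% lower in TiO2-H.

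The brightest Dcc probe (A_55_P1961761, NM_007831) had a processed signal of 3953 ± 395 and 4972 ± 497 on the Sham male and female arrays, where the error is that given by the scanner software for the spot. On the TiO2-H arrays it had 10136 ± 1014 (labelled male) and 11721 ± 1172 (labelled female). Scaled, these were 4.88, 6.25, 11.7 and 13.5. Both TiO2-H pools thus lay above both Sham pools, with a gap of 0.90 on the log2 scale between the lower TiO2-H pool and the higher Sham pool. The pools differed less within an exposure, by 0.36 in log2 between the Sham arrays and 0.20 between the TiO2-H arrays, and in both the array labelled female was the higher.

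The fold change of this Dcc probe was 2.4 (labelled male) and 2.15 (labelled female), which are log2 ratios of 1.26 and 1.11, each with an error of 0.20 carried over from the spots. Crossing the TiO2-H arrays between the sex labels gave log2 ratios of 1.46 and 0.90, or 2.76- and 1.87-fold. In log2 scaled signal the Sham mean was 2.47 ± 0.25 and the TiO2-H mean 3.65 ± 0.14 (SD, n = 2 pools each). By limma the difference was 1.18 in log2 (SE 0.17, 95% interval 0.68 to 1.69), or 2.27-fold (1.6 to 3.23), with an unadjusted p of 0.00435 and an adjusted p of 0.351. The exact permutation test, two-sided, gave p = 0.33, the smallest that 2 arrays against 2 allow. In pooled whole brain, more cells that express a gene and more of its RNA per cell cannot be told apart.

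**Figure D1:**
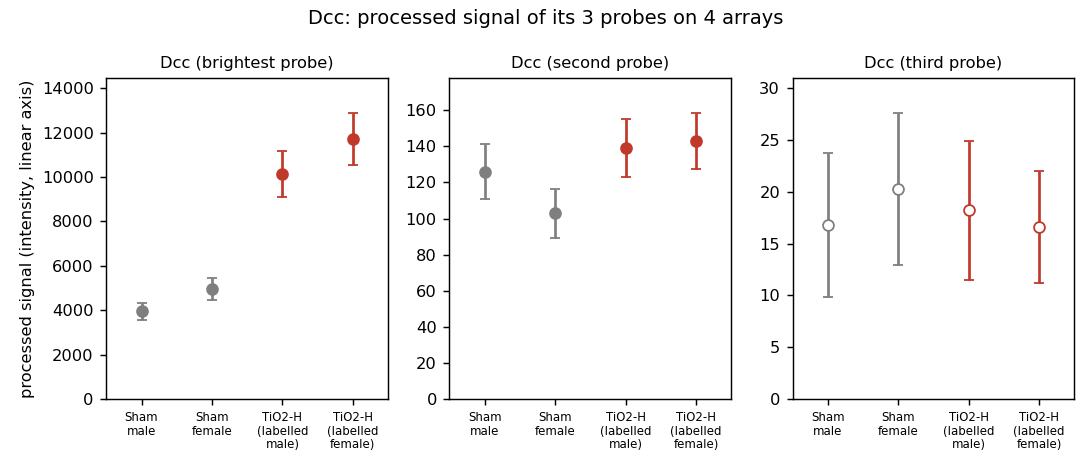
Processed signal (intensity, linear axis from 0) of the 3 Dcc probes on each of the 4 arrays, with the spot error of the scanner software as bars and open symbols where the probe was not well above background. The brightest probe read 3953 and 4972 in Sham and 10136 and 11721 in TiO2-H, whereas the second probe stayed between 103 and 143, with the bars of the Sham male array overlapping those of the TiO2-H arrays and the bar of the Sham female array below them.

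Placed among all 29409 probes well above background on every array, the brightest Dcc probe was the only 1 whose smaller log2 ratio of both sexes reached 1.11, and 3 probes lay as far below Sham. The study took up Dcc from these same arrays, for altered expression in both sexes and a high signal. Its place in this order is therefore a description and no independent support. With the TiO2-H arrays crossed the smaller Dcc ratio was 0.90, reached by 2 probes including Dcc, and 7 lay as far below. A gap of 0.90 or more between the exposures was found for 2 probes above Sham, Dcc and an unnamed transcript, and for 5 probes below it. By the limma difference alone Dcc stood lower in the order, since 118 of 35626 probes (0.331%) had as large an increase and 659 as large a decrease. Its difference between the Sham arrays, 0.36, was reached by 5.65% of probes in either direction, and its difference between the TiO2-H arrays, 0.20, by 13.8%. The 17 measured spots within 2 rows and columns of it on the array had median log2 ratios of 0.13 and 0.093. The 63 within 5 rows and columns had 0.13 and 0.07, beside 0.0055 and 0.0053 for all probes well above background on every array. The spots around Dcc thus lay somewhat higher in TiO2-H than the array as a whole, but did not share its ratios of 1.26 and 1.11.

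The second Dcc probe (A_55_P2021744, same accession) gave a different picture. Its processed signal was 126 ± 15.1, 103 ± 13.5, 139 ± 16 and 143 ± 15.6, and scaled it was 0.155, 0.13, 0.161 and 0.164. The TiO2-H pools were again above the Sham pools, but by 1.04-fold (labelled male) and 1.27-fold (labelled female). The first log2 ratio, 0.051, was within its spot error of 0.24, and the second, 0.34, exceeded its error of 0.25. By limma the difference was 0.20 in log2 (SE 0.11, 95% interval -0.14 to 0.53, unadjusted p 0.166, adjusted p 0.468), an interval that ends below the 0.68 at which that of the brightest probe begins. With normexp background correction the second probe differed by 0.0063. The third Dcc probe (A_65_P07978) read between 16.6 and 20.3, not well above background anywhere.

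The ratio of the brightest to the second Dcc probe, a quantity within each array, was 31.5 and 48.2 on the Sham arrays and 72.8 and 82.1 on the TiO2-H arrays. Equal change of both probes would keep it level, and it differed between exposures as well as between the Sham pools. Among 3783 genes with at least 2 probes of the same kind, the median span between the limma differences of a gene's probes was 0.10, and 26 genes (0.687%) had a span as wide as the 0.99 of Dcc. Both Unc5c probes lay 0.092 apart and both Ntn1 probes 0.34 apart. Which transcript form each Dcc probe binds was not tested. The study also measured Dcc by quantitative RT-PCR in single offspring and reported a tendency similar to that of its arrays.

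**Figure D2:**
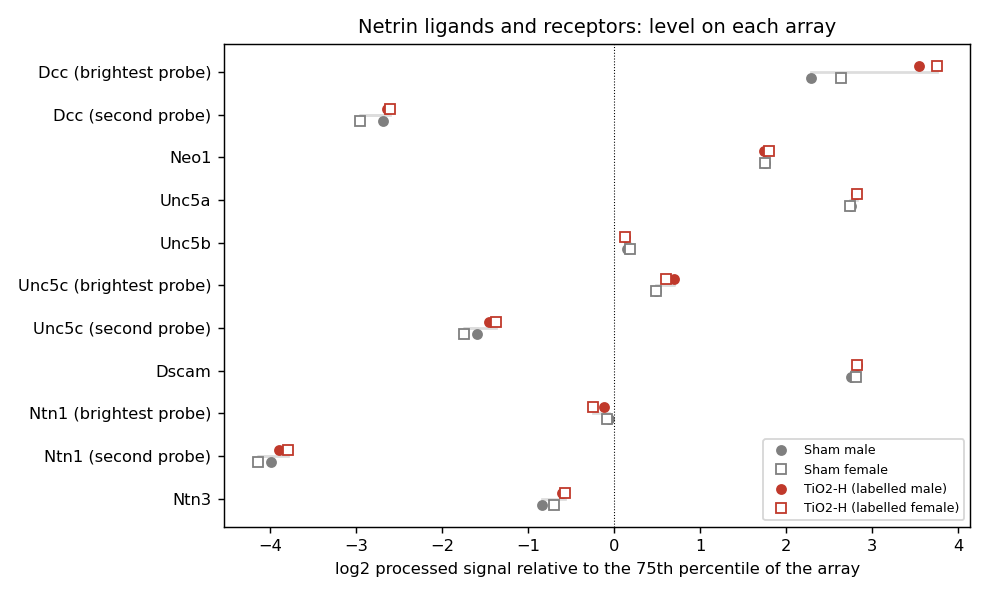
Level of each member probe well above background on all 4 arrays, as log2 processed signal relative to the 75th percentile of the array (0 at that percentile), with circles for arrays labelled male, squares for arrays labelled female, grey for Sham and red for TiO2-H. For the brightest Dcc probe the red symbols (3.55 and 3.75) stand apart from the grey ones (2.29 and 2.64), and for the other probes the 4 symbols lie close together, some of them hidden behind another. Levels of different probes are not comparable, since probes differ in binding.

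Neo1 (A_55_P2316300, NM_008684), the paralog of Dcc, had processed signals of 2728, 2676, 2897 and 3026, or 3.37, 3.37, 3.34 and 3.48 scaled. The exposures overlapped, with the array labelled TiO2-H male at the bottom and the array labelled TiO2-H female at the top. The limma difference was 0.018 in log2 (SE 0.046, 95% interval -0.12 to 0.16, adjusted p 0.861). Dscam (A_51_P189943, NM_031174) gave 6.78, 7.03, 7.11 and 7.11 scaled, with both TiO2-H pools above both Sham pools by log2 ratios of only 0.069 and 0.017. Its limma difference was 0.043 (95% interval -0.095 to 0.18, adjusted p 0.662), and under quantile normalization its ratio on the arrays labelled female turned to -0.0049, as that on the arrays labelled male did under normexp background correction (-0.016).

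The Unc5 receptors, transmembrane proteins with an intracellular death domain, differed little between the exposures. Unc5a (A_55_P2060922, NM_153131), which is largely neuronal, gave 6.74, 6.67, 7.04 and 7.06 scaled, with log2 ratios of 0.062 and 0.082 and a limma difference of 0.072 (95% interval -0.052 to 0.20, adjusted p 0.471). Unc5b (A_55_P1973770, NM_029770), which also acts in blood vessels, gave 1.11, 1.14, 1.1 and 1.09 and was the lone receptor with both TiO2-H pools below both Sham pools. Its difference was -0.04 (95% interval -0.17 to 0.095, adjusted p 0.676), and without scaling between arrays it changed sign (0.075).

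Unc5c, a receptor for repulsion known from cerebellar and corticospinal development, was read by 2 probes. The brighter (A_52_P380301, NM_009472) gave 1.4, 1.4, 1.62 and 1.52 scaled, with log2 ratios of 0.21 and 0.12 (0.11 and 0.21 with the TiO2-H arrays crossed). The other (A_66_P129566) gave 0.333, 0.298, 0.365 and 0.387, with log2 ratios of 0.13 and 0.38. For both probes each TiO2-H pool lay above each Sham pool, at most 1.3-fold. By limma the differences were 0.16 (SE 0.055, 95% interval -0.0039 to 0.33, unadjusted p 0.0531, adjusted p 0.361) and 0.26 (SE 0.083, 95% interval 0.004 to 0.51, unadjusted p 0.048, adjusted p 0.357). Unc5d (A_55_P2026649, NM_153135), an Unc5 receptor of upper cortical layers, had processed signals of 18.4, 9.27, 32.4 and 15.2 and was well above background on the array labelled TiO2-H male alone, so no fold change is given.

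Among the secreted netrins, Ntn1, the floor plate ligand of Dcc, had probes that pointed in opposite directions. Its brighter probe (A_55_P2162935, NM_008744) gave 0.958, 0.944, 0.92 and 0.84 scaled, with both TiO2-H pools below both Sham pools and a limma difference of -0.11 (SE 0.066, 95% interval -0.32 to 0.088, adjusted p 0.478). Its dimmer probe (A_51_P147123) gave 0.0628, 0.0567, 0.067 and 0.0725, with the TiO2-H pools above and a difference of 0.22 (SE 0.083, 95% interval -0.031 to 0.48, adjusted p 0.374). Neither difference passed the adjusted threshold, so no direction is given for Ntn1. Without scaling the brighter probe stood at 0.00057, and under quantile normalization the ratio of the dimmer probe on the arrays labelled male was -0.0017.

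Ntn3 (A_52_P505192, NM_010947), a second secreted netrin that binds Dcc and Unc5 receptors, gave 0.557, 0.614, 0.658 and 0.674 scaled. Both TiO2-H pools were above both Sham pools, by log2 ratios of 0.24 and 0.13, and the limma difference was 0.19 (SE 0.069, 95% interval -0.025 to 0.40, unadjusted p 0.0681, adjusted p 0.373). The step between the Sham arrays was of the order of the step to TiO2-H. Ntn4 (A_51_P497661, NM_021320), a netrin of basement membranes, read between 24.9 and 28.8 in processed signal and likewise stayed near background throughout.

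**Figure D3:**
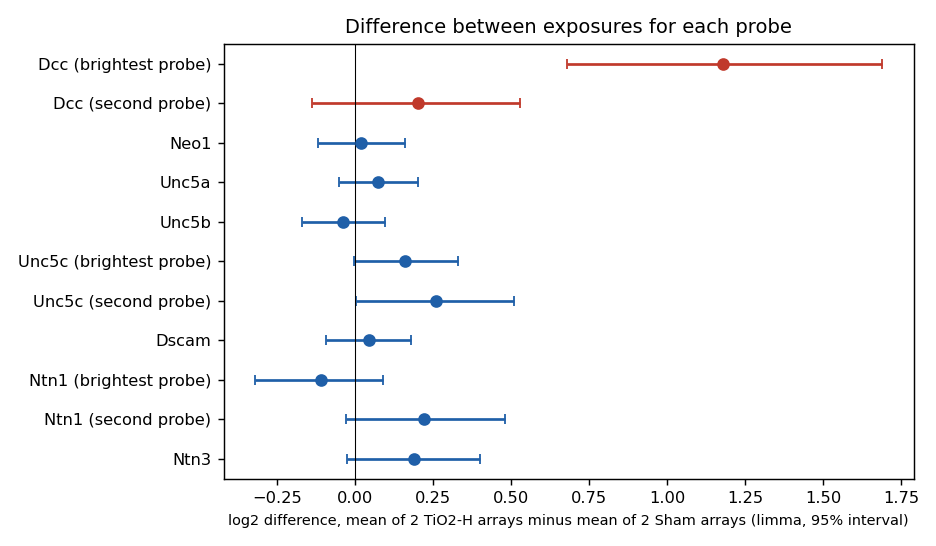
Limma difference of log2 scaled signal between the mean of 2 TiO2-H arrays and the mean of 2 Sham arrays for the 11 member probes, with 95% intervals as bars and Dcc in red. The interval of the brightest Dcc probe runs from 0.68 to 1.69, that of the dimmer Unc5c probe from 0.004 to 0.51, and the other intervals include 0.

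Counted over the 11 probes, 8 had both TiO2-H pools above both Sham pools, against 28.9% of all probes well above background on the 4 arrays, and 2 had both below, against 25.8%. The probes above were 2 of Dcc, 2 of Unc5c and 1 each of Unc5a, Dscam, Ntn1 and Ntn3, and those below were the Unc5b probe and the brighter Ntn1 probe. The number higher in both sexes, 8 in the scaling used, was 10 with no scaling, where all probes shifted by medians of 0.10 and 0.14, and 6 with quantile normalization or normexp. Past an unadjusted limma p of 0.05 were 2 of the 11 (brightest Dcc and dimmer Unc5c), against 13.9% of all 35626 probes tested. Those include probes well above background on fewer than 4 arrays. With limma limited to the 29409 probes well above background on all 4, 5 of the 11 passed, against 18.2%. After adjustment over all probes none passed, and no probe of the array did, the lowest adjusted p being 0.311. Leaving out the brightest Dcc probe, the median log2 ratio of the other 10 was 0.065 on the arrays labelled male and 0.10 on those labelled female, beside 0.0055 and 0.0053 for all probes with a robust SD of 0.15.

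**Figure D4:**
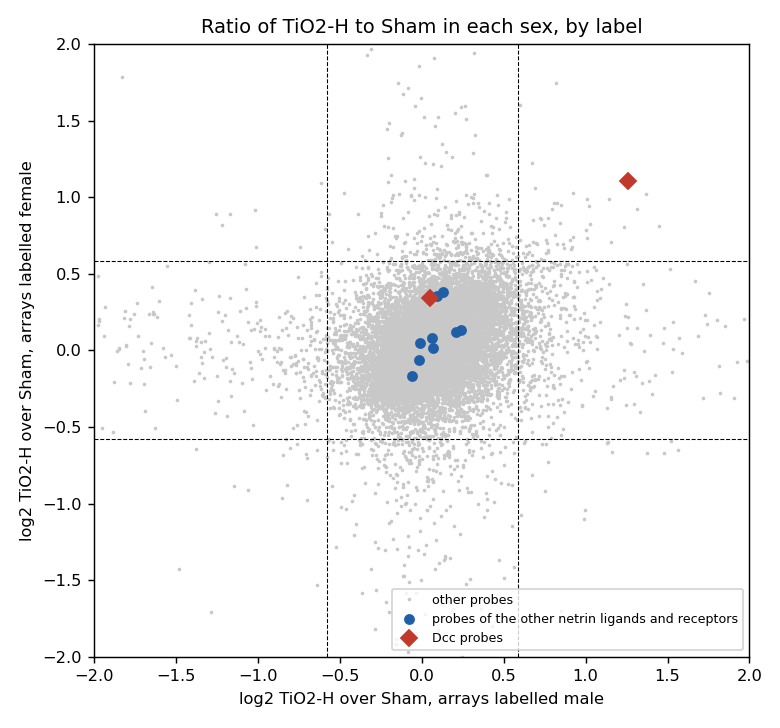
Log2 ratio of TiO2-H to Sham on the arrays labelled male (horizontal) and female (vertical) for probes well above background on all 4 arrays, with dashed lines at 1.5-fold and 0.67-fold, grey dots for other probes, blue circles for members and red diamonds for the Dcc probes. The brightest Dcc probe lies at 1.26 and 1.11 in the upper right, and the other 10 member probes lie inside the dashed lines, as the bulk of the 29309 probes drawn do. A further 100 probes fall beyond the axes.

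The genes around Dcc on its chromosome did not share its ratio. Of the 3 RefSeq genes next to it on either side, Mbd2, Poli, Mex3c, Smad4 and Elac1 were well above background on all arrays, with log2 ratios between -0.11 and 0.13. Their adjusted limma p ranged from 0.544 to 0.879. Stard6 was well above background on 2 arrays only and was not compared.

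The probes whose levels over the 4 arrays were most like those of the brightest Dcc probe, by the root mean square distance of their log2 signals centred on the probe mean, belonged to Rhox8, Gcm1, Slc1a2, Maml3 and Chmp4b, with distances between 0.066 and 0.22. Rhox8, a homeobox gene of the reproductive Rhox cluster, gave 3.19, 4.64, 8.22 and 9.43 scaled. Gcm1, a transcription factor known from the placenta, gave 3.73, 4.76, 7.55 and 9.15. In both, as in Dcc, the array labelled female was the higher within each exposure. The Slc1a2 and Maml3 probes were dim, with scaled signals of 0.0596 to 0.119 and 0.0653 to 0.139. This likeness rests on 4 arrays and was sought among all named probes, so it is a description.

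The further probes of these 5 genes differed less between the exposures. As the 5 probes were picked for their likeness to the brightest Dcc probe, flatter other probes follow in part from that choice. Of their 10 other probes, 8 were well above background on all arrays, and none of the 8 reached 1.5-fold in either sex, their folds lying between 0.891 and 1.39. The other Rhox8 probe had log2 ratios of 0.13 and -0.17. The closest was a Gcm1 probe with 0.46 and 0.48, which kept the order of the 4 arrays at a smaller size, as did a Maml3 probe (0.19 and 0.19) and a Chmp4b probe (0.15 and 0.10). For Slc1a2, the main glial glutamate transporter, a probe of the same accession as the one like Dcc had 0.03 and 0.27. The brightest Slc1a2 probe, at 0.696 to 0.709 scaled, had 0.022 and -0.019. The distance of the second Dcc probe from the brightest was 0.54. The cause of this difference between probes of a gene was not tested.

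**Figure D5:**
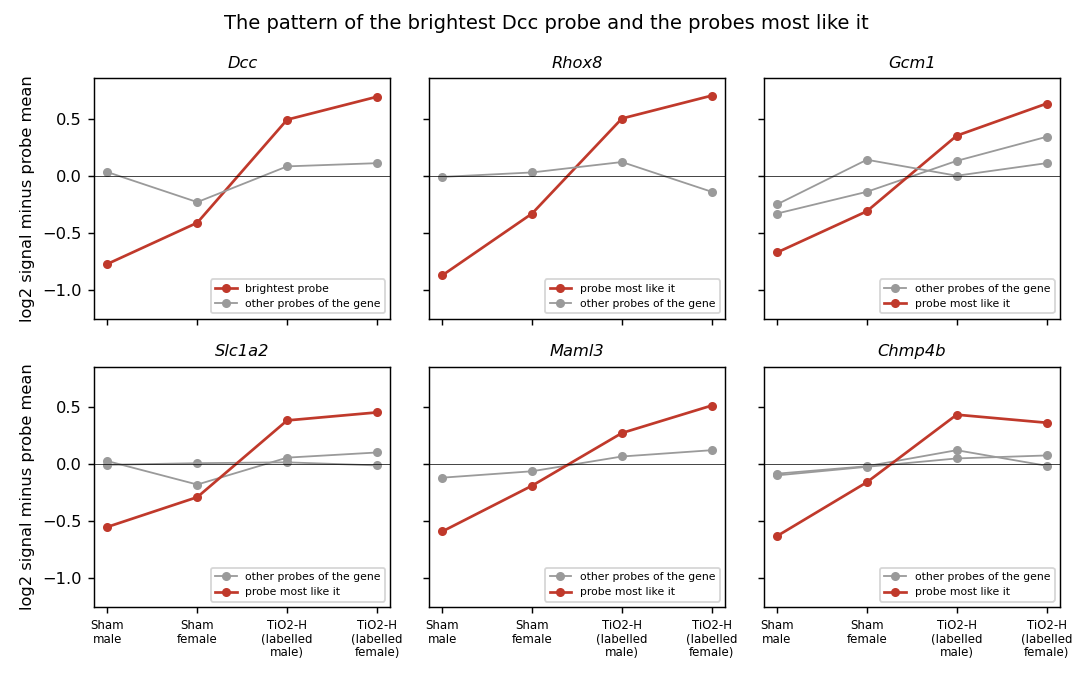
Log2 signal minus the mean of the probe over the arrays, on each of the 4 arrays, for Dcc and the 5 genes with the probe most like its brightest probe (red), with the other detected probes of each gene in grey. Lines join the values of a probe and do not stand for an order of the arrays. The red line spans -0.77 to 0.69 in Dcc and -0.87 to 0.70 in Rhox8, whereas the grey lines of all 6 genes stay flatter. In the 5 genes the choice of the red probe favors this.

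The genes that work with these receptors were followed as 3 lists, each gene by its brightest probe. Of 12 further ligands and netrin-G genes, 11 were detected on all arrays, with median log2 ratios of 0.09 and 0.024. Draxin, a secreted ligand of Dcc, was upregulated on the arrays labelled male alone (log2 0.66, against 0.074, or 0.74 and 0.0018 with the TiO2-H arrays crossed), where its scaled signal of 0.0601, 0.0951, 0.0952 and 0.1 shows the Sham male pool to be the low one. Ntng1, the membrane-anchored netrin-G1, gave 2.25, 2.36, 2.73 and 2.82, a limma difference of 0.27 (SE 0.052, unadjusted p 0.0112, adjusted p 0.351). Its partner Lrrc4c differed by 0.11 (unadjusted p 0.0733) and Lrrc4, the partner of netrin-G2, by -0.20 (unadjusted p 0.0584, adjusted p 0.364).

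Of the 6 Slit and Robo genes, which guide axons at the midline, none passed 1.5- or 0.67-fold, and the median log2 ratios were 0.10 and 0.15. The Slit receptor Robo1 gave 5.21, 5.33, 6.13 and 6.17 scaled (limma difference 0.22, SE 0.042, unadjusted p 0.0111, adjusted p 0.351). Robo2 gave 3.37, 3.31, 3.72 and 4.05 (0.22, SE 0.063, unadjusted p 0.0364, adjusted p 0.351). For both, the TiO2-H pools lay above the Sham pools, as they did for 4 of the 6 genes and below for 0, beside 28.9% and 25.8% of all probes. Robo3, the Robo of commissural axons, which binds Dcc, gave 0.191, 0.149, 0.192 and 0.162, where the exposures overlapped.

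All 27 effectors of Dcc and Unc5 signaling, the kinases, adaptors and cytoskeletal proteins downstream of the receptors, were detected on all arrays, and none passed either fold threshold. Their median log2 ratios were 0.042 and 0.017. Past an unadjusted limma p of 0.05, 4 were higher in TiO2-H, against 8.56% of all probes, and 0 were lower, against 5.39%. Both shares include probes not detected on all arrays, unlike the 27. Those 4 are named next. The 4 were the focal adhesion kinase Ptk2 (0.29, SE 0.043, unadjusted p 0.00501), the microtubule protein Map1b (0.23, unadjusted p 0.0113), the Dcc-binding adaptor Appl1 (0.20, unadjusted p 0.014) and the lipid transfer protein Pitpna (0.17, unadjusted p 0.0242), each with an adjusted p of 0.351. Rac1 (0.048, unadjusted p 0.335) and Trim9, a ubiquitin ligase bound to Dcc (-0.06, unadjusted p 0.45), did not pass.

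Markers of brain cells bear on how the pools were composed. All 8 neuron markers were detected, with median log2 ratios of 0.12 and 0.15 and a summed scaled signal of 381 to 385 in Sham and 381 to 399 in TiO2-H. Of the 7 detected red blood cell markers, 6 were lower in both TiO2-H pools than in both Sham pools, beside 25.8% of all probes, and their sum was 319 and 298 against 268 and 274. All 5 meninges markers were higher in both TiO2-H pools, beside 28.9% of all probes (sum 23.6 and 23.1 against 24.8 and 25.4). Growth hormone, a marker of pituitary cells, was well above background on the array labelled TiO2-H male alone (0.347 scaled). Of the other pituitary markers, Prl, Cga, Tshb and Pou1f1 were well above background on no array, and Pomc was on all of them. Markers of midbrain dopamine neurons, of thalamus and hypothalamus and of hindbrain and spinal cord had median log2 ratios between -0.00088 and 0.093. Single markers among them went both ways, with limma differences of -0.29 for Gbx2 (unadjusted p 0.0183), 0.23 for Lhx9 (unadjusted p 0.0232), 0.19 for Slc18a2 (unadjusted p 0.0413) and 0.19 for Lmx1b (unadjusted p 0.0311), each with an adjusted p of 0.351 or above. The part of these shifts in the values of the netrin genes was not tested.

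The study set gene expression beside CpG islands, which often lie at gene starts, and the start regions of a member with both probes higher in the TiO2-H pools (Unc5c), one with its single probe higher (Ntn3) and one with overlapping pools (Neo1) are shown for their CpG content. They are the 250 bases before each RefSeq gene start (GRCm38.p6), in the direction of the gene, with every CG in capitals. Unc5c lies at chr3:141465314-141465563 (plus strand), Ntn3 at chr17:24209388-24209637 (minus strand) and Neo1 at chr9:59036442-59036691 (minus strand).
Unc5c: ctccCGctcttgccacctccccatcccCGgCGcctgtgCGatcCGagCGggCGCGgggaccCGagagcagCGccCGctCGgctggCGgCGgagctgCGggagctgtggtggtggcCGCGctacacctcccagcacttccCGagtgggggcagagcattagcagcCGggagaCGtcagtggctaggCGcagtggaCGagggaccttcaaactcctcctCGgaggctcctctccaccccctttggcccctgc
Ntn3: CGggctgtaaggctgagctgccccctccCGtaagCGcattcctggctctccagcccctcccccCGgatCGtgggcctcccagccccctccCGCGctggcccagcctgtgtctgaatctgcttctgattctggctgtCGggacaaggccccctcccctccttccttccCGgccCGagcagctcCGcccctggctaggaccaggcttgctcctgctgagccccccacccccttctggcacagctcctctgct
Neo1: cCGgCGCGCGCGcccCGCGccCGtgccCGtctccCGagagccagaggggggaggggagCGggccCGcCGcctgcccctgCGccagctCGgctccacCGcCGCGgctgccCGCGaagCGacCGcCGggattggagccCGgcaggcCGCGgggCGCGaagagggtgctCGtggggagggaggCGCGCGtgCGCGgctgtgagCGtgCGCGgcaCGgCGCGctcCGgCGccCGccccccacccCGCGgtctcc
The motif CG reads the same on both strands. It occurs 23 times in the Unc5c sequence, 11 times in that of Ntn3 and 45 times in that of Neo1. Of all 32851 such sequences, 13.3%, 35.6% and 0.405% hold as many, and their median is 6. Of the 10 genes 7 were matched, with 25 in Unc5a, 27 in Unc5b, 21 in Dscam and 26 in Ntn4, so each matched member lay above the median whether or not it was detected. These letters describe the sequence, and methylation was not analysed here.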

How the data were processed

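RNA from 4 pools of brains at postnatal day 1 was hybridized to one-color SurePrint G3 Mouse arrays, 1 array per exposure and sex. The authors deposited scanner output made with Agilent Feature Extraction (10.10.1.1), in which the intensity of each spot had its local background subtracted and spatial trends removed, without scaling between arrays. A deposited table held the same intensity.

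From these, the log2 of the processed intensity minus the log2 of the 75th percentile of the array's non-control spots was computed. Outlier spots were left out (138 to 181 per array) and spots of a probe averaged. For a ratio, 1 or both arrays had to show the probe well above background, the lowest signal well above background (23.3 to 31.7) being the floor for the other. Between 56.2% and 61.2% of spots were well above background. The thresholds of 1.5 and 0.67 follow the methods of the study. With 1 array per group there is no test within a sex. Both TiO2-H arrays were compared with both Sham arrays by limma 3.58.1 in R 4.3.3 over 35626 probes, without sex as a term, with Benjamini-Hochberg adjustment, after the fit had been tested on simulated data. The remaining computation was done in Python 3.11.15 with pandas 2.3.3 and numpy 2.4.6.

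Probes were named through RefSeq accessions (GRCm38.p6), so probes of these genes under other identifiers were left out. Named are all probes of the 10 genes, the 5 probes most like the brightest Dcc probe, the neighbors of Dcc, and, from 3 lists of partner genes and the marker lists, those past a threshold or central to the pathway. The members and lists were chosen with earlier results of these data known, as was the comparison with the TiO2-H arrays crossed between the sex labels, which was chosen after seeing the data. The alternatives were no scaling, quantile normalization, normexp (offset 50, on median signals, as the files hold no mean signal), the deposited table, no floor, a filter on all arrays, no filter, outliers kept, a 2-fold threshold, sex as a block and each array left out in turn.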

Additional observations from a re-analysis of the deposited data

Results flagged for a closer look

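For Neo1 the log2 ratio of TiO2-H to Sham was -0.011 (labelled male) and 0.047 (labelled female), opposite directions that differ by 0.058. With the TiO2-H arrays crossed the values were 0.046 and -0.011. With 1 array per group this difference was not tested, and it is smaller than the spot-to-spot SD of 0.064 to 0.07.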

How the results depend on the processing

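The limma difference of the brightest Dcc probe kept its direction in every alternative run. On all 4 arrays it lay between 1.18 and 1.30 in log2, with adjusted p from 0.16 to 0.53. Leaving out each array in turn gave 1.00 (without Sham male) to 1.36 (without Sham female). No member passed an adjusted p of 0.05 in any of these fits. The log2 ratios of that probe within the labelled sexes, 1.26 and 1.11, became 1.46 and 0.90 with the TiO2-H arrays crossed. In each alternative that gives a ratio, 1 member probe passed the fold in both sexes.

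With sex as labelled as a replicate block the Dcc difference was 1.18 (limma, unadjusted p 0.00225, adjusted p 0.492), and with sex crossed as the block the adjusted p was 0.53. The number of the 11 member probes past an unadjusted limma p of 0.05 is given beside the share of all probes tested. As reported it was 2, beside 13.9%. It was 1 with sex as labelled as the block (8.99%) and 3 with sex crossed (8.7%). With no scaling it was 7 (23.3%), and with the filter on all arrays 5 (18.2%). With no floor or no filter it was 1 (13.6% and 5.36%).

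Over all probes, 2455 passed a fold threshold on the arrays labelled male and 2030 on those labelled female. These counts became 1401 and 1061 with normexp, 972 and 845 with the filter on all arrays and 1177 and 1065 at 2-fold, and the second became 3048 with no floor. The share of higher calls, 55.4% and 44.4%, was 66.8% and 61.6% with no scaling, 45.5% and 41.9% with quantile normalization, 41.2% and 31.1% with normexp, 63.5% and 63% with no floor and, with the TiO2-H arrays crossed, 46.4% and 54.6%, which turns which labelled sex had mostly higher calls. Why these counts moved was not tested beyond the construction of each alternative. Signals near background limit Unc5d, Ntn4 and the dim Dcc and Ntn1 probes.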

Other observations

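Further marker lists showed no member past 1.5- or 0.67-fold in both sexes. Median log2 ratios were -0.013 and -0.054 for astrocyte, 0.11 and 0.12 for oligodendrocyte lineage, 0.11 and 0.19 for microglia, 0.13 and -0.054 for endothelial, 0.043 and 0.053 for progenitor, -0.08 and 0.0014 for choroid plexus, -0.055 and 0.0094 for forebrain and -0.054 and -0.053 for cerebellum markers, the last with both TiO2-H pools below both Sham pools for 4 of 5 genes. Markers of muscle and skin had -0.033 and -0.089. Pomc, made in pituitary and hypothalamus, gave scaled signals of 0.706, 0.717, 1.1 and 0.678. It was high on the array labelled TiO2-H male, where growth hormone was also detected but the pituitary markers Prl, Cga, Tshb and Pou1f1 were not.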
